A study of Mus musculus with 10 samples.

Results

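The semaphorins, plexins, neuropilins, ephrins, Eph receptors, netrins and Unc5 receptors are among the main families of axon guidance genes in the mouse, and they are described here in the hippocampus after photoablation of meningeal lymphatic vessels. The members were the protein-coding genes whose symbol names them as a semaphorin of classes 3 to 7, a plexin, a neuropilin, an EphA or EphB receptor, an ephrin, a netrin or netrin-G, or an Unc5 receptor. In the annotation 63 genes matched, and 61 of them were among the 27343 genes of the count table (Sema4c and Ntn3 were not analysed here). Of the 61, 56 passed the filter on low counts and were tested. The other 5 (Efna4, Epha1, Epha8, Ntn5 and Sema3f) had 0 to 15 counts per library. Together the members held between 0.208% and 0.263% of a library's counts.

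The study measured total RNA of the whole hippocampus in 5 Visudyne and 5 vehicle samples, numbered 1 to 5 and 6 to 10. All came from male wild-type C57BL/6J mice aged 2 months. The Visudyne group received verteporfin for injection (Visudyne) into the cisterna magna and then 689 nm red light shone on the intact skull, which is meant to destroy the lymphatic vessels of the meninges. The vehicle group received vehicle by the same route and the same light, as the control for Visudyne. In both groups the procedure was done again 2 weeks later, another 2 weeks passed before the Morris water maze (a spatial learning test, so every sample comes from a trained mouse), and the hippocampus was taken 3 days after it. The question for these genes is which of them differed between the groups. The labels do not say outright that each sample is a separate animal, so p-values measure the spread between these samples, which may be technical.

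Guidance genes encode ligands and receptors through which a growing axon is attracted or repelled. Secreted class 3 semaphorins mostly bind neuropilins, which signal through plexin A receptors, whereas most membrane-bound semaphorins bind plexins directly. Ephrins are held on the cell surface, signal to Eph receptor tyrosine kinases on the neighbouring cell and can signal back into their own cell, and netrins attract axons through Dcc and repel them through Unc5 receptors. In the adult hippocampus the same proteins are known at synapses and dendritic spines, and they are also made by glia and blood vessels.

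Some libraries and some features of the libraries moved with the groups, and these values stand beside every result given here. Total counts were 34548474 to 36956138 in Visudyne libraries and 24752362 to 41073906 in vehicle libraries, and mt-Rnr2, a mitochondrial ribosomal RNA, took 33.6% to 39.7% of the counts in Visudyne and 32.2% to 35.7% in vehicle. The slope of a library's log2 level on the GC content of the transcripts, per 10 percentage points of GC, was -0.54, -0.12, -0.22, -0.13 and 0.0079 in Visudyne samples 1 to 5, against 0.30, 0.16, 0.16, 0.41 and -0.020 in vehicle samples 6 to 10. GC-rich genes therefore read lower in all Visudyne libraries other than Visudyne 5 and higher in all vehicle libraries other than vehicle 10. Neuronal markers were abundant in every library, with a summed level of 4532 to 5665 CPM (counts scaled to an equal library size) in Visudyne and 3935 to 4616 CPM in vehicle, and the markers of CA1, CA3 and dentate granule cells were all detected, as the label of the tissue says. Of 6 markers of the ventral hippocampus, 5 were called higher in Visudyne (Htr2c, Nr2f2, Trhr, Dcn and Grp, not Gpc3; 4 with the GC trend removed), none was at 0, and their summed level was 123 to 197 CPM in Visudyne against 75.3 to 108 CPM in vehicle. Of 8 tested oligodendrocyte markers, 0 were called higher and 4 lower, with summed levels of 2282 to 2734 CPM in Visudyne and 2349 to 3165 CPM in vehicle, Mag being too low to test and at 0 in libraries of both groups. Of 6 markers of oligodendrocyte precursors, 0 were called higher and 2 lower, with summed levels of 77.5 to 90.4 CPM in Visudyne and 87.5 to 96.5 CPM in vehicle. Choroid plexus markers summed to 30.2 to 471 CPM in Visudyne, where samples 3 and 5 stood far above the others, and to 28.5 to 40.3 CPM in vehicle, and dentate granule markers were lowest in Visudyne 5. The part that base composition, regional makeup and these cell types have in the guidance gene differences was not tested, except where a value with the GC trend removed or without samples 3 and 5 is given.

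**Figure D1:**
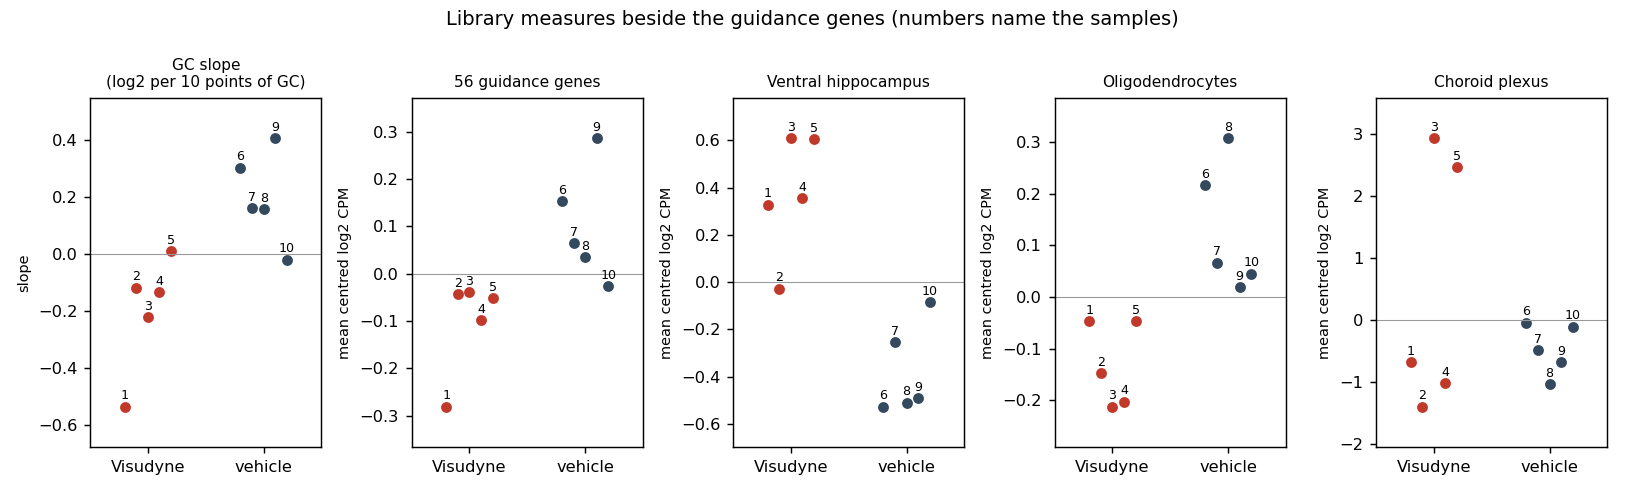
Measures of the 10 libraries beside the guidance genes: the slope of log2 level on GC content, the mean of the 56 tested guidance genes (each gene's log2 CPM minus its mean over the 10 libraries), and the same mean for 3 marker lists; each point is a library, red for Visudyne and dark blue for vehicle, numbered by sample. The guidance gene mean is lowest in Visudyne 1 at -0.28 and highest in vehicle 9 at 0.29, the libraries with the lowest and the highest GC slope.

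Between Visudyne and vehicle hippocampus, guidance genes differed in both directions and by small factors. The netrin receptors Unc5c and Unc5d, the plexin Plxnc1, the ephrins Efnb2 and Efna5 and the semaphorin Sema3e were higher in Visudyne, by 1.26 to 1.48-fold. The semaphorins Sema7a, Sema3g and Sema5b, the ephrin Efnb3, the plexin Plxnb3, the receptors Ephb1, Epha10 and Ephb6, and Unc5a were lower, at 0.481 to 0.795 of the vehicle level. In these bulk samples, fewer cells of a type and less RNA per cell cannot be told apart. By edgeR's quasi-likelihood test with Benjamini-Hochberg adjustment over the 15938 genes tested, 6 of the 56 tested members were called higher (10.7%) and 9 lower (16.1%) at an adjusted p under 0.05, and 41 were not called. The same test called 20.5% of all genes, 8.98% higher and 11.5% lower. The members' shares were near these in both directions, and whether they differ from them was not tested. The median log2 fold change over the 56 was -0.20, beside 0.01 over all genes. Scaled by total counts alone, which moved the median of all genes to -0.19, 1 member was called higher and 18 lower. The groups did not overlap for 3 members that were above vehicle in every Visudyne library (Unc5c, Unc5d and Plxnc1) and 5 that were below (Sema7a, Sema3g, Efnb3, Sema5b and Plxnb3), where 5.25% and 7.22% of all genes separated in those directions. Unc5a alone was past 2-fold among the 15, and 20 of the 41 uncalled members lay within 1.2-fold of vehicle.

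**Figure D2:**
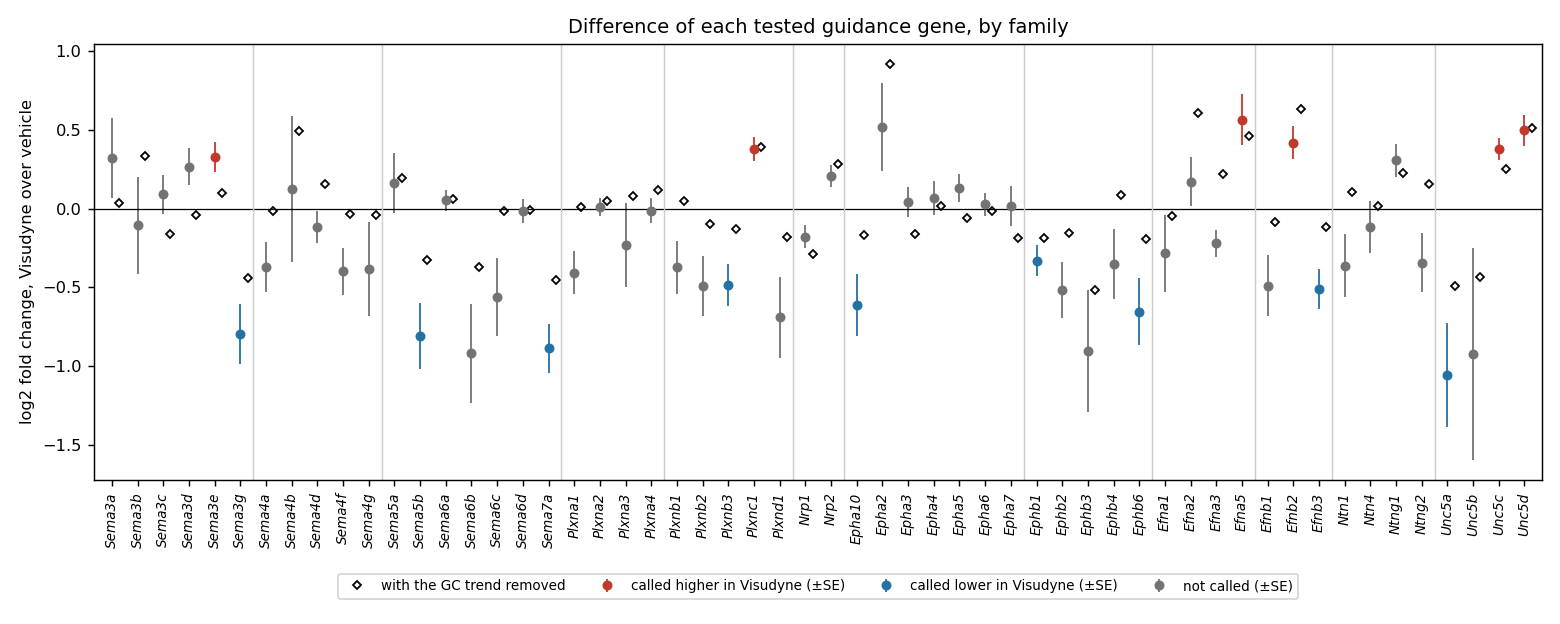
Log2 fold change of Visudyne over vehicle for the 56 tested guidance genes, grouped by family between the grey lines in the order of semaphorins, plexins, neuropilins, Eph receptors, ephrins, netrins and Unc5 receptors. Circles are the fitted values with their standard error, red for the 6 called higher, blue for the 9 called lower and grey for the rest; open diamonds are the values once each library's GC trend is removed, and most of the lower genes then move up towards 0.

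The direction of a guidance gene went with its base composition. Across the 56 members, the log2 fold change and the GC content of the transcripts had a Pearson's r of -0.73 and a Spearman's rank correlation of -0.75, against -0.60 and -0.68 across the 15829 genes with known GC content. These are correlations across genes that share the same 10 libraries, so the genes are not independent replicates. Of the 15 members below the median GC content of all tested genes (49.0%), 13 had a positive log2 fold change and 0 were called lower. Of the 41 at or above it, 32 had a negative one, and these 41 included all 9 called lower and 3 of the 6 called higher. The members called higher had 42.1% to 53.2% GC and those called lower 51.8% to 62.1%. When each library's GC trend was removed by a smooth curve, the edgeR quasi-likelihood test called 5 members higher and 1 lower, or 10.7% of the 56, where it called 4.47% of all genes (2.23% higher and 2.24% lower), and the members' median log2 fold change was -0.01. The 5 genes called in the same direction with and without the trend were Unc5c, Unc5d, Plxnc1 and Efnb2, which were higher, and Sema7a, which was lower. Nrp2, which had missed the threshold, was called higher with the trend removed. With the GC slope of each library as a covariate, 0 members and 0 of all genes were called by edgeR (9 members and 1032 genes at an unadjusted p under 0.05).

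The calls also depended on which libraries were included. Without Visudyne 3 or without vehicle 6, edgeR's quasi-likelihood test with Benjamini-Hochberg adjustment called 0 members, with the lowest adjusted p at 0.0636 and 0.0696. The 15 genes kept their sign in both cases, 26 members had an unadjusted p under 0.05 in each, and the same fits called 27 and 10 of all genes. Without Visudyne 5 the counts were 8 higher and 15 lower, where 31.5% of all genes were called. They were 4 and 3 without Visudyne 1 (6.94% of all genes), 5 and 5 without Visudyne 2 (11.3%), and 3 and 4 without Visudyne 4 (6.96%). Without vehicle 7 there were 6 higher and 5 lower (9.67% of all genes), and without vehicle 9 there were 2 and 1 (1.92%). They were 4 and 9 without vehicle 8 (13.6%) and 5 and 13 without vehicle 10 (22.6%), where 11 and 14 of the 15 genes remained called. The members' counts thus moved with those of all genes. With the GC trend removed, 0 members were called once Visudyne 3, Visudyne 4, vehicle 6, vehicle 8 or vehicle 9 was left out (0.0124% to 0.628% of all genes) and 1 without Visudyne 1 or vehicle 7 (0.807% and 0.549%). Without Visudyne 5 that fit called 8 higher and 2 lower, where it called 11.5% of all genes. It called 4 higher and 1 lower without Visudyne 2 (1.71% of all genes) and 5 and 1 without vehicle 10 (3.8%). In both of these, Unc5c, Unc5d, Plxnc1, Efnb2 and Sema7a remained called. Leaving out Visudyne 3 and Visudyne 5 together, where choroid plexus genes were high, was chosen after seeing the data. It gave 6 higher and 8 lower and 18.4% of all genes, and 10 of the 15 genes remained called. With the GC trend removed as well, it gave 5 higher and 0 lower and 2.46% of all genes. Of the 15 genes, 3 then remained called (Plxnc1, Unc5c and Unc5d), without Efnb2 and Sema7a.

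**Figure D3:**
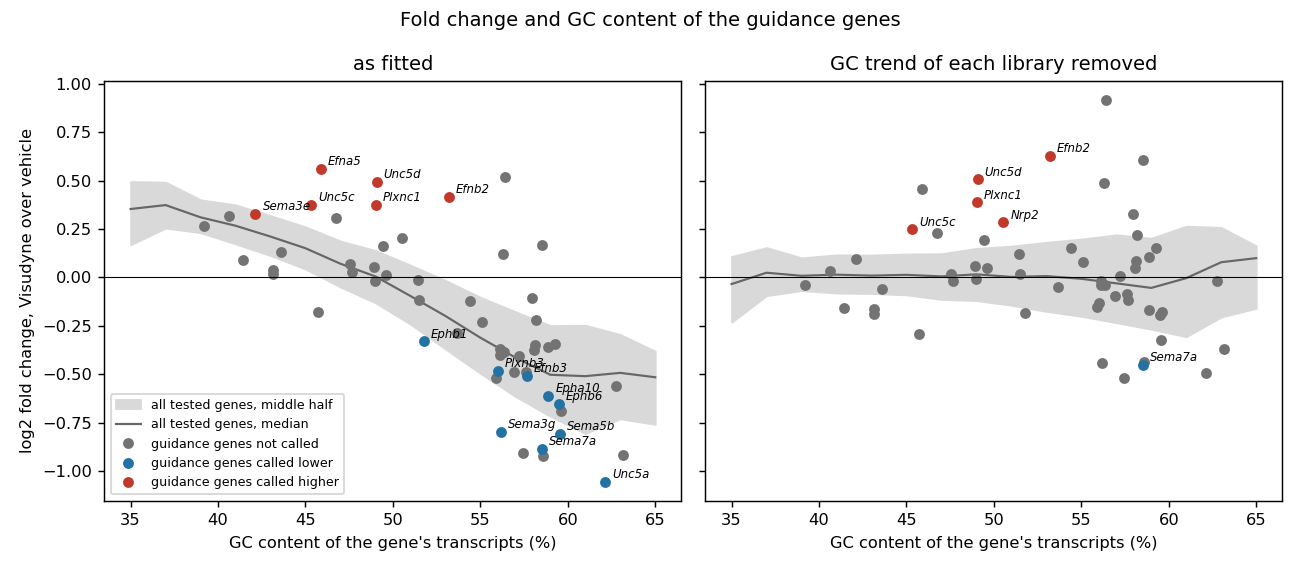
Log2 fold change of Visudyne over vehicle against the GC content of each gene's transcripts, as fitted (left) and with each library's GC trend removed (right), for the 56 tested guidance genes (points; red called higher, blue called lower). The grey line is the median and the grey band the middle 50% of all tested genes in bins of GC content. On the left the guidance genes follow the falling line; on the right Unc5c, Unc5d, Plxnc1, Efnb2 and Nrp2 are called higher and Sema7a lower.

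Of the genes that kept their call with the GC trend removed, the promoters of Efnb2, Plxnc1, Unc5c and Sema7a were read from RefSeq on GRCm38.p6, as the 250 bases before the annotated start. Of the 56 tested members, 49 had an entry, with 62 windows. The windows of Efnb2 (chr8:8661243-8661492, minus strand), Plxnc1 (chr10:94944846-94945095, minus strand) and Sema7a (chr9:57939862-57940111, plus strand) are shown 5′ to 3′ in the direction of transcription, with GC boxes in capitals, meaning the letters GGGCGG on either strand (so CCGCCC where they lie on the other), the core of the site that Sp1 family factors bind.
Efnb2: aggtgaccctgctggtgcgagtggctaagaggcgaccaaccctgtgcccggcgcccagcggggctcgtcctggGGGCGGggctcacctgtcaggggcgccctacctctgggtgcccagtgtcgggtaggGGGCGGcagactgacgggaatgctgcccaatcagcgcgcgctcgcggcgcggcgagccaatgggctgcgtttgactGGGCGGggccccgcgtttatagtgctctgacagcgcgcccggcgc
Plxnc1: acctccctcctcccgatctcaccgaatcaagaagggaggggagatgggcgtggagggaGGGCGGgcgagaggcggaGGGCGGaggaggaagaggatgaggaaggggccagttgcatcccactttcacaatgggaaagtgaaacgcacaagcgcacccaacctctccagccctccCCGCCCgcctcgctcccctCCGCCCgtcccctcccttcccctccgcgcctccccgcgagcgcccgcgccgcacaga
Sema7a: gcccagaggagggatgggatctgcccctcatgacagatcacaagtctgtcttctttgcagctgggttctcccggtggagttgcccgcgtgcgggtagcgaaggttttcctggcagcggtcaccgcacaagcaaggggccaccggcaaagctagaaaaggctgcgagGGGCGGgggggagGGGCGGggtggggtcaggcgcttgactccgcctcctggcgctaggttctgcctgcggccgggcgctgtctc
The Efnb2 window holds 3 such matches, the Plxnc1 window 4 and the Sema7a window 2, and 0 was found in that of Unc5c (chr3:141465314-141465563, plus strand), which lies inside the annotated gene and is not shown. A GC box was present in 46 of the 62 member windows (74.2%) against 32.7% of 32851 promoter windows of the same length. Member promoters were also richer in GC, with a median of 64.4% against 52.4% over all promoters. The boxes did not separate the directions: 4 of 5 windows of members called higher, 5 of 8 of those called lower and 37 of 49 of those not called held one. The E-box CACGTG was in 2 member windows (6.02% of all promoters) and the cyclic AMP response element TGACGTCA in 1 (1.55% of all), neither of them in the 4 windows named here, so no match overlapped another motif. A match describes letters and not a site in use.

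**Figure D4:**
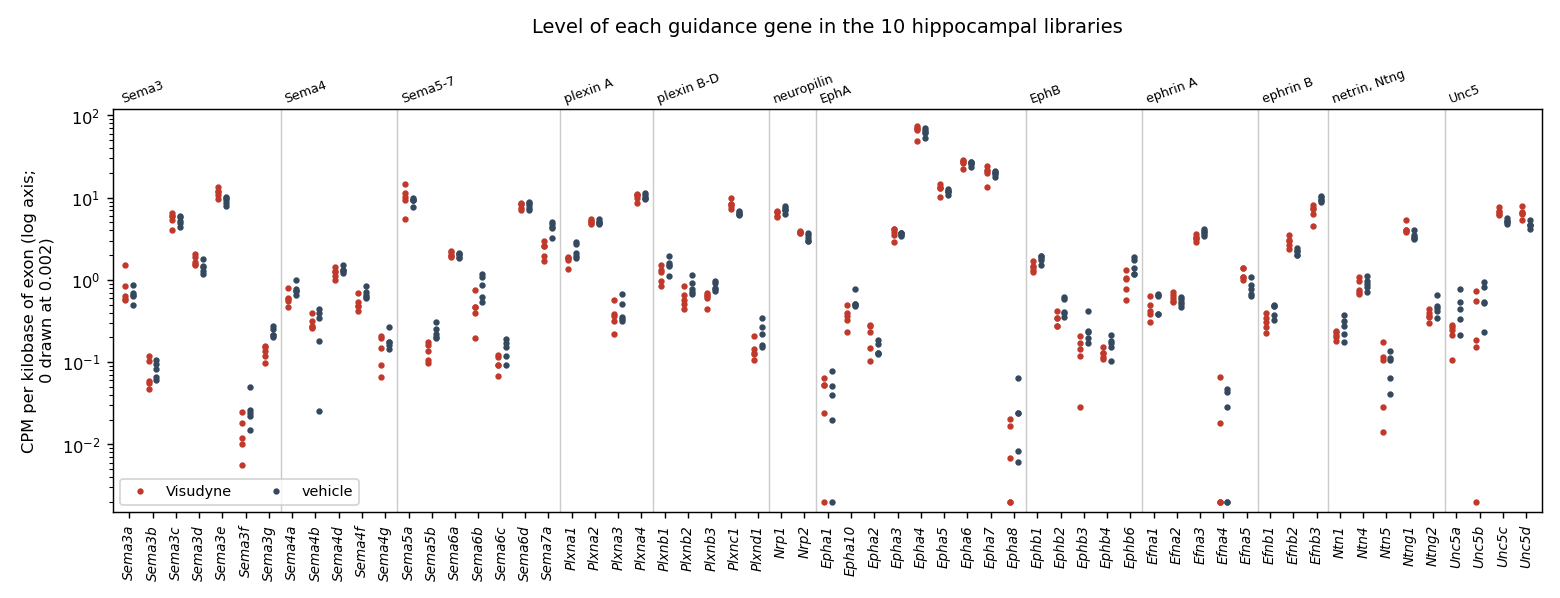
Level of the 61 guidance genes in each library, as CPM per kilobase of exon on a log axis, grouped by family; red points are the 5 Visudyne libraries and dark blue points the 5 vehicle libraries, and a level of 0 is drawn at 0.002. Epha4 stands highest at 65.8 in Visudyne and 62.8 in vehicle, and the levels of most genes overlap between the groups.

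Per length, the most abundant guidance genes were 4 of the 9 Eph receptors of class A. Epha4, a receptor of dendritic spines that binds ephrins of both classes, averaged 65.8 CPM per kilobase of exon in Visudyne and 62.8 in vehicle. Epha6 and Epha7 came next at 26.5 and 20.1 in Visudyne against 26.0 and 19.9 in vehicle (both are named after their values were seen), then Epha5 at 13.0 against 11.8. Below them Sema3e, Plxna4 and Sema5a lay within 10.2 to 11.6 CPM per kilobase in Visudyne and 9.14 to 10.3 in vehicle, and their libraries overlapped, so their order is not resolved. The most abundant tested member of every other family lay at or under 8.40 CPM per kilobase in Visudyne and 9.64 in vehicle, the last being Efnb3.

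Among the secreted class 3 semaphorins, 6 of 7 members were tested, 1 was called higher and 1 lower. Sema3e (ENSMUSG00000063531, chr5:14025276-14256689, GRCm38), which binds plexin D1 without a neuropilin, had 126, 112, 108, 101.01 and 89.8 CPM in Visudyne samples 1 to 5 and 92.3, 86.8, 79.4, 73.2 and 96.0 CPM in vehicle samples 6 to 10. Visudyne 1 was the highest, and Visudyne 5 lay inside the vehicle range. The mean was 107 ± 13.3 CPM in Visudyne hippocampus, against 85.6 ± 9.31 CPM in vehicle (SD over n = 5 per group), giving a log2 fold change of 0.33 ± 0.10 (SE; edgeR quasi-likelihood, adjusted p = 0.0369), and it was 0.10 with the GC trend removed (adjusted p = 0.386). Sema3e was among the most AT-rich members at 42.1% GC. A tested gene on the opposite strand, Gm4128, overlaps it, and since the strand setting of the counting is not stated, reads of the pair may not be told apart.

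Sema3g (ENSMUSG00000021904, chr14:31217860-31230352), a secreted semaphorin, was low throughout, at 0.628, 0.446, 0.702, 0.709 and 0.548 CPM in Visudyne, against 0.965, 1.25, 1.16, 0.916 and 0.985 CPM in vehicle. These levels rest on 20, 14, 22, 24 and 21 counts in Visudyne and 42, 44, 51, 36 and 25 in vehicle, and the groups did not overlap. The log2 fold change was -0.80 ± 0.19 (edgeR adjusted p = 0.0266), and -0.44 with the GC trend removed (adjusted p = 0.248). Sema3a, the classic neuropilin-1 ligand, had 11.9, 8.94, 21.1, 8.22 and 7.90 CPM in Visudyne and 8.87, 11.9, 9.60, 9.16 and 6.89 CPM in vehicle. Its value in Visudyne 3 was far above the other 9, the groups overlapped, and it was not called (log2 fold change 0.32 ± 0.25, edgeR adjusted p = 0.367). Sema3f, the neuropilin-2 ligand, was untested with 2, 3, 4, 1 and 2 counts in Visudyne and 5, 9, 6, 5 and 2 in vehicle. Over the 6 tested class 3 genes, 4 log2 fold changes were positive and 2 negative, and with the GC trend removed 3 were positive and 3 negative.

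The member with the lowest p was a membrane-bound semaphorin. Sema7a (ENSMUSG00000038264, chr9:57940112-57962865), a lipid-anchored ligand of plexin C1 and of integrins, had 5.62, 9.74, 6.39, 8.51 and 8.53 CPM in Visudyne and 16.7, 14.4, 14.1, 16 and 10.6 CPM in vehicle. Every Visudyne library was below every vehicle library, although vehicle 10, at 10.6 CPM, stood only a little above Visudyne 2. Sema7a averaged 7.76 ± 1.70 CPM in Visudyne hippocampus, against 14.3 ± 2.37 CPM in vehicle (SD over n = 5 per group), or 0.541 of the vehicle level, with a log2 fold change of -0.89 ± 0.16 (edgeR adjusted p = 0.0201). With the GC trend removed it was -0.45 (edgeR adjusted p = 0.0389). As fitted with the trend kept, Sema7a was called in 8 of the 10 fits that left out a library. Once the trend was removed, only the fits without Visudyne 2, Visudyne 5 or vehicle 10 called it.

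Sema5b (ENSMUSG00000052133, chr16:35541145-35664732), a transmembrane semaphorin with thrombospondin repeats, had 0.691, 1.24, 0.958, 1.15 and 0.756 CPM in Visudyne and 1.82, 1.43, 1.38, 2.19 and 1.58 CPM in vehicle. The groups did not overlap, and the counts behind these levels were 22, 39, 30, 39 and 29 in Visudyne and 79, 50, 61, 86 and 40 in vehicle. Its log2 fold change was -0.81 ± 0.21 (edgeR adjusted p = 0.0292) and -0.32 with the GC trend removed (adjusted p = 0.265). Its relative Sema5a, the most abundant semaphorin of classes 5 to 7 per length, had 272, 215, 173, 192 and 102 CPM in Visudyne and 175, 175, 186, 145 and 174 CPM in vehicle. Visudyne ranged from the lowest library, Visudyne 5, to the highest, Visudyne 1, on both sides of the narrow vehicle range, and Sema5a was not called (adjusted p = 0.553). Of the 7 genes of classes 5, 6 and 7, 0 were called higher and 2 lower, and 5 of 7 log2 fold changes were negative, with and without the GC trend. These genes had a median GC content of 58.5%. As fitted, the median log2 fold change of all tested genes at 58% to 60% GC was -0.50.

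None of the 5 class 4 semaphorins was called, and 4 of their 5 log2 fold changes were negative, or 3 of 5 with the GC trend removed. Their median GC content was 56.1%, and all tested genes at 56% to 58% GC had a median of -0.41 as fitted. Sema4d, a transmembrane ligand of plexin B1 that oligodendrocytes make, had 7.72, 8.69, 9.77, 9.72 and 11.2 CPM in Visudyne and 10.1, 9.41, 9.78, 11.6 and 10.3 CPM in vehicle. The ranges overlapped and the log2 fold change was -0.12 ± 0.10 (edgeR adjusted p = 0.403). A microRNA gene, Gm23566, overlaps Sema4d on the opposite strand. The value with the GC trend removed was 0.15 (adjusted p = 0.176).

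**Figure D5:**
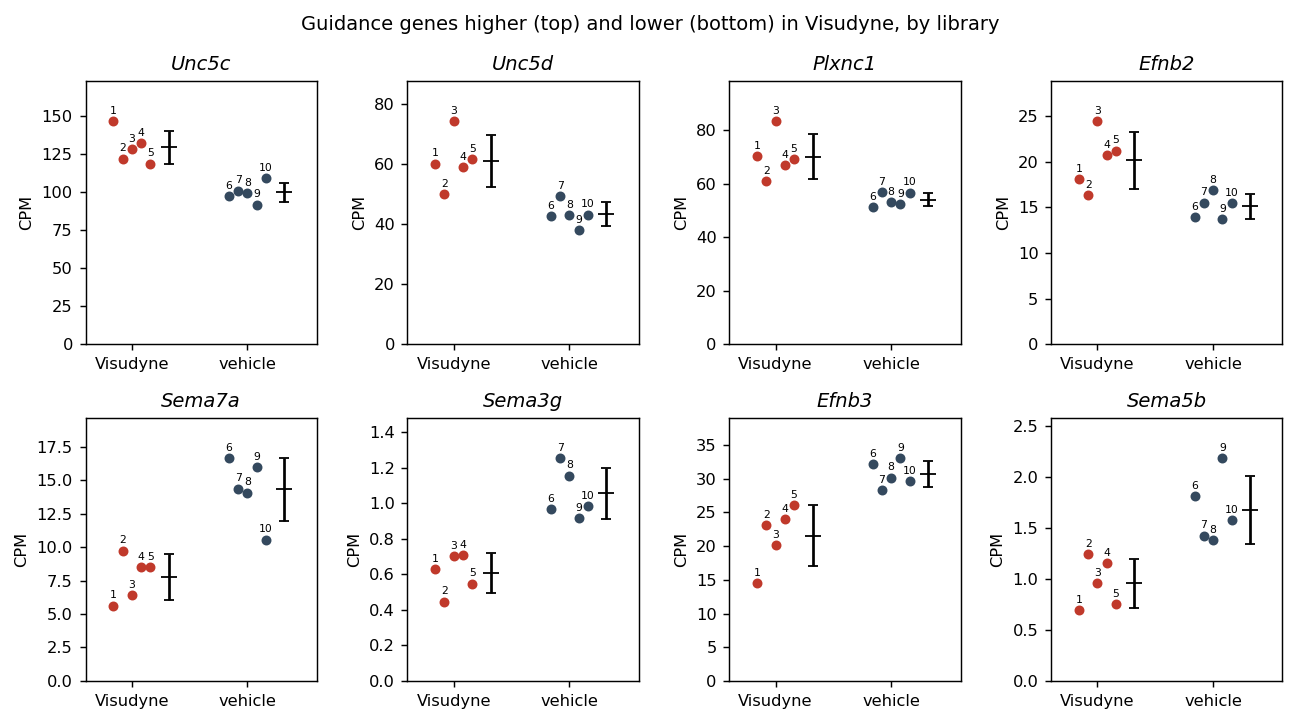
CPM of 8 guidance genes in each library, with the mean and SD of the group beside the points (n = 5 each); the upper row holds 4 genes called higher and the lower row 4 called lower in Visudyne, and points are numbered by sample. Groups are apart for every gene shown other than Efnb2, where Visudyne 2 at 16.3 CPM lies below vehicle 8 at 16.9 CPM.

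Among the receptors of semaphorins, the receptor of Sema7a went the other way from its ligand. Plxnc1 (ENSMUSG00000074785, chr10:94790866-94944835) had 70.3, 60.9, 83.3, 66.8 and 69.3 CPM in Visudyne and 51.2, 56.9, 53.2, 52.3 and 56.7 CPM in vehicle. Every Visudyne library was above every vehicle library, with Visudyne 3 the highest. It averaged 70.1 ± 8.25 CPM in Visudyne hippocampus, against 54.0 ± 2.58 CPM in vehicle (SD over n = 5 per group), 1.30-fold, with a log2 fold change of 0.38 ± 0.077 (edgeR adjusted p = 0.0231) that was 0.39 with the GC trend removed (adjusted p = 0.0283). Of the fits with the trend removed and a single library left out, only those without Visudyne 2, Visudyne 5 or vehicle 10 called Plxnc1.

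Plxnb3 (ENSMUSG00000031385, chrX:73757090-73772514), a receptor of Sema5a, had 2.89, 4.11, 4.28, 3.87 and 4.46 CPM in Visudyne and 6.00, 5.02, 5.19, 6.36 and 4.8 CPM in vehicle. The groups stood apart, and the nearest libraries were Visudyne 5 and vehicle 10. The log2 fold change was -0.48 ± 0.13 (edgeR adjusted p = 0.0324), but -0.13 with the GC trend removed (adjusted p = 0.331). The other plexins of classes B and D were not called, and their log2 fold changes were negative; with the GC trend removed, Plxnb1 (named after its values were seen) was at 0.049.

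None of the 4 plexin A genes was called. Plxna4, a signalling partner of the neuropilins, had 153, 153, 139, 157 and 121 CPM in Visudyne and 151, 137, 139, 162 and 139.7 CPM in vehicle, with full overlap (log2 fold change -0.013 ± 0.079, edgeR adjusted p = 0.920). Plxna4os1 and Plxna4os2 overlap it on the opposite strand, so its reads carry the same uncertainty as those of Sema3e. Plxna2, through which Sema6 proteins guide hippocampal mossy fibres, had the smallest standard error of all members, at 85.2, 88.6, 88.8, 93.6 and 82.0 CPM in Visudyne, against 87.2, 85.7, 86.3, 93.5 and 82.3 CPM in vehicle. Its log2 fold change of 0.011 ± 0.055 had an adjusted p of 0.903 by edgeR.

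The neuropilins lay on opposite sides of 0 and neither was called. Nrp1, the Sema3a receptor, had 58.7, 66.8, 56.5, 65.1 and 65.5 CPM in Visudyne and 78.6, 62.4, 73.1, 69.6 and 69.9 CPM in vehicle (log2 fold change -0.18 ± 0.072, edgeR adjusted p = 0.0887). Nrp2, the Sema3f receptor, had 43.8, 46.1, 44.9, 45.5 and 44.2 CPM in Visudyne and 44.6, 37.9, 35.2, 35.1 and 41.9 CPM in vehicle (log2 fold change 0.20 ± 0.071, edgeR adjusted p = 0.0561). The 5 Visudyne values of Nrp2 were close together, and vehicle 6 fell among them. With the GC trend removed, Nrp2 was called at a log2 fold change of 0.28 (adjusted p = 0.0464) and Nrp1 was not, at -0.29 (adjusted p = 0.0614).

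The abundant EphA receptors were not called, and the 3 calls among Eph receptors fell on less abundant ones. Epha4 had 599.6, 573, 531, 547 and 399.8 CPM in Visudyne and 566, 506, 498, 427 and 531 CPM in vehicle, with the lowest value in Visudyne 5 (log2 fold change 0.068 ± 0.11, edgeR adjusted p = 0.660). Epha5, a receptor of ephrin A ligands in topographic maps, had 247, 222, 226, 217 and 173 CPM in Visudyne and 197, 211, 199.8, 179.5 and 204 CPM in vehicle, again lowest in Visudyne 5 (log2 fold change 0.13 ± 0.086, edgeR adjusted p = 0.274). Neither receptor was called, and 6 of the 7 tested EphA genes had a positive log2 fold change, against 2 of 7 with the GC trend removed. The exception as fitted was Epha10 (ENSMUSG00000028876, chr4:124880899-124917800), which lacks kinase activity. The median GC content of the tested EphA genes was 47.5%. All tested genes at 46% to 48% GC had a median log2 fold change of 0.071 as fitted.

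Epha10 had 1.66, 2.32, 2.62, 2.87 and 3.55 CPM in Visudyne and 3.66, 3.59, 3.65, 5.55 and 3.51 CPM in vehicle. Vehicle 9 was far above the other 4 vehicle libraries, and Visudyne 5 reached the vehicle range. The log2 fold change was -0.61 ± 0.20 (edgeR adjusted p = 0.0471). It was -0.17 with the GC trend removed (adjusted p = 0.391) and 0.037, a positive value, with the GC slope as a covariate.

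All 5 EphB genes had negative log2 fold changes (4 of 5 with the GC trend removed), and 2 were called lower, where 11.5% of all genes were. The class had a median GC content of 57.4%. Over all tested genes at 56% to 58% GC, the median log2 fold change was -0.41. Ephb1 (ENSMUSG00000032537, chr9:101922128-102354693), a receptor of ephrin B ligands and the most abundant of the class per length, had 10.5, 11.8, 9.16, 10.2 and 8.84 CPM in Visudyne and 13.6, 13.9, 12.3, 13.0 and 10.6 CPM in vehicle, where vehicle 10 lay among the Visudyne libraries (log2 fold change -0.33 ± 0.10, edgeR adjusted p = 0.0396). A long noncoding gene on the opposite strand, Gm26846, overlaps Ephb1, with the same uncertainty about its reads.

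Ephb6 (ENSMUSG00000029869, chr6:41605482-41620509), which like Epha10 has no kinase activity, had 2.17, 3.95, 2.94, 3.87 and 4.93 CPM in Visudyne and 6.62, 5.28, 4.44, 7.28 and 4.49 CPM in vehicle. Visudyne 5 lay inside the vehicle range and Visudyne 1 was lowest (log2 fold change -0.65 ± 0.21, edgeR adjusted p = 0.0479). Ephb2, which associates with NMDA receptors at synapses, had 3.49, 4.33, 3.48, 5.29 and 4.33 CPM in Visudyne and 7.33, 5.10, 4.53, 7.91 and 5.04 CPM in vehicle. The groups overlapped and Ephb2 was not called (log2 fold change -0.52 ± 0.18, edgeR adjusted p = 0.0556). With the GC trend removed, the log2 fold changes were -0.19 for Ephb1, -0.19 for Ephb6 and -0.15 for Ephb2, none of them called. Ephb6 had the opposite sign in the fit with each library's GC slope, at 0.15.

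The transmembrane ephrins differed in opposite directions. Efnb2 (ENSMUSG00000001300, chr8:8617434-8661242), a ligand of EphB receptors that also marks arterial endothelium, had 18.1, 16.3, 24.4, 20.7 and 21.2 CPM in Visudyne and 13.9, 15.5, 16.9, 13.7 and 15.4 CPM in vehicle. Visudyne 3 was the highest, and only Visudyne 2 fell within the vehicle range. Efnb2 averaged 20.1 ± 3.11 CPM in Visudyne hippocampus, against 15.1 ± 1.32 CPM in vehicle (SD over n = 5 per group), 1.34-fold, with a log2 fold change of 0.42 ± 0.10 (edgeR adjusted p = 0.0280).

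Efnb3 (ENSMUSG00000003934, chr11:69554092-69560205), a ligand of EphA4 and of EphB receptors, was the most abundant ephrin per length, with 14.5, 23.1, 20.1, 24.0 and 26.1 CPM in Visudyne and 32.2, 28.3, 30.2, 33.1 and 29.7 CPM in vehicle. Its groups did not overlap, and Visudyne 1 was lowest. Efnb3 averaged 21.6 ± 4.49 CPM in Visudyne hippocampus, against 30.7 ± 1.93 CPM in vehicle (SD over n = 5 per group), 0.703 of the vehicle level, with a log2 fold change of -0.51 ± 0.13 (edgeR adjusted p = 0.0277). Once the GC trend was removed, Efnb2 stood at 0.63 and was called (adjusted p = 0.0283), while Efnb3 stood at -0.12 and was not (adjusted p = 0.327). Efnb2 was GC-richer than the median gene at 53.2%, and of the members called higher it was the one whose log2 fold change moved furthest from 0 when the trend was removed. As fitted with the trend kept, Efnb2 was called in 6 of the 10 fits that left out a library. Once the trend was removed, only those without Visudyne 2, Visudyne 5 or vehicle 10 called it.

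Among the lipid-anchored ephrin A ligands, 4 of 5 were tested and 1 was called higher. Efna5 (ENSMUSG00000048915, chr17:62604184-62881317), a repellent cue of topographic maps, had 4.33, 4.01, 5.65, 4.43 and 5.61 CPM in Visudyne and 2.76, 4.36, 3.47, 3.10 and 2.56 CPM in vehicle. Vehicle 7 lay among the lower Visudyne libraries and the other 4 vehicle libraries lay below all of Visudyne (log2 fold change 0.56 ± 0.16, edgeR adjusted p = 0.0349). It was not called with the GC trend removed (log2 fold change 0.46, edgeR adjusted p = 0.0975). As fitted with the trend kept, 3 of the 10 fits without a library called Efna5. Efna3, the most abundant ephrin A per length, had 7.03, 8.72, 8.21, 7.92 and 7.77 CPM in Visudyne and 9.56, 9.32, 8.74, 10.1 and 8.43 CPM in vehicle and was not called (log2 fold change -0.22 ± 0.083, edgeR adjusted p = 0.0719). Its sign was the opposite with the GC trend removed, at 0.22, and it was again not called (edgeR adjusted p = 0.188). Efna3 was called by edgeR once the trend was removed and Visudyne 5 was left out as well.

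No netrin was called, and 3 of the 4 tested had negative log2 fold changes, though 0 of 4 did with the GC trend removed. Their median GC content was 55.2%, and all tested genes at 54% to 56% GC had a median of -0.31 as fitted. Ntn1, the secreted founder of the family, was scarce at 1.13, 1.46, 1.28, 1.33 and 1.49 CPM in Visudyne, against 1.38, 1.97, 1.74, 2.37 and 1.10 CPM in vehicle (log2 fold change -0.36 ± 0.20, edgeR adjusted p = 0.201). Ntng1, a lipid-anchored netrin-G that organises synapses through Lrrc4c, was the most abundant, with 33.3, 31.9, 44.5, 33.7 and 32.2 CPM in Visudyne and 25.8, 33.7, 26.6, 27.3 and 28.7 CPM in vehicle. Visudyne 3 was far above the other Visudyne libraries and vehicle 7 lay among them. Ntng1 had the lowest adjusted p of the uncalled members at 0.0519 by edgeR (log2 fold change 0.31 ± 0.10).

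The Unc5 receptors, through which netrins repel axons, changed in both directions: of 4 tested, 2 were called higher and 1 lower. Unc5c (ENSMUSG00000059921, chr3:141465216-141834924) had 147, 122, 128, 132 and 119 CPM in Visudyne and 97.4, 101.1, 99.7, 91.9 and 109 CPM in vehicle. The groups did not overlap, and Visudyne 1 was the highest. Unc5c averaged 129.6 ± 10.9 CPM in Visudyne hippocampus, against 99.9 ± 6.35 CPM in vehicle (SD over n = 5 per group), 1.30-fold, with a log2 fold change of 0.38 ± 0.069 (edgeR adjusted p = 0.0201). With the GC trend removed it was 0.25 (adjusted p = 0.0241). Gm15688 and Gm15689 overlap Unc5c on the opposite strand, so part of its reads may be theirs.

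Unc5d (ENSMUSG00000063626, chr8:28646717-29219636), a repulsive receptor that also binds Flrt2, had 60.1, 49.8, 74.2, 58.9 and 61.5 CPM in Visudyne and 42.7, 49.3, 42.9, 38 and 43.1 CPM in vehicle. Visudyne 3 was the highest, and Visudyne 2 stood just above vehicle 7, so the groups were apart by a narrow margin. It averaged 60.9 ± 8.72 CPM in Visudyne hippocampus, against 43.2 ± 4.03 CPM in vehicle (SD over n = 5 per group), 1.41-fold, with a log2 fold change of 0.49 ± 0.10 (edgeR adjusted p = 0.0226) and of 0.51 with the GC trend removed (adjusted p = 0.0277). As fitted with the trend kept, Unc5c and Unc5d were each called in 8 of the 10 fits without a library. Once the trend was removed, Unc5c was called without Visudyne 1, Visudyne 2, Visudyne 5 or vehicle 10. Unc5d was then called without Visudyne 2, Visudyne 5, vehicle 7 or vehicle 10.

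Unc5a (ENSMUSG00000025876, chr13:54949411-55006018), the scarcest gene of the family per length in both groups, had 0.440, 1.11, 0.894, 1.03 and 1.17 CPM in Visudyne and 2.23, 1.85, 1.40, 3.26 and 0.906 CPM in vehicle. Vehicle spread widely and vehicle 10 lay among the Visudyne libraries (log2 fold change -1.06 ± 0.33, edgeR adjusted p = 0.0432). Unc5a was the GC-richest of the called members at 62.1%, and its log2 fold change was -0.49 with the GC trend removed (adjusted p = 0.154) and 0.32, of the opposite sign, with the GC slope as a covariate.

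Genes that work with these families were read from 4 lists. Of 20 co-receptors and other binding partners, 7 were called higher and 1 lower, with a median log2 fold change of 0.12, where 8.98% of all genes were called higher and 11.5% lower. Chl1, an adhesion molecule that binds neuropilin-1, averaged 511 ± 51.1 CPM in Visudyne hippocampus, against 369 ± 43.0 CPM in vehicle (SD over n = 5 per group; log2 fold change 0.47 ± 0.092, adjusted p = 0.0226 by edgeR). Met, the receptor of hepatocyte growth factor that can pair with plexin B1, averaged 10.7 ± 1.98 CPM in Visudyne hippocampus, against 7.13 ± 0.733 CPM in vehicle (log2 fold change 0.58 ± 0.13, adjusted p = 0.0244 by edgeR). Adam10, a protease that sheds ephrins, Rgmb, a ligand of neogenin, Flrt2, a ligand of Unc5d, and Nrcam, an adhesion molecule, were also higher, with log2 fold changes of 0.43, 0.22, 0.38 and 0.21. Flrt2 and its receptor Unc5d were therefore both called higher. With the GC trend removed 3 of the list were called higher, Chl1, Met and Rgmb, and 0 lower, where 2.23% of all genes were called higher and 2.24% lower.

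Calls in the effector lists, which also hold membrane proteins (Plxdc2 and Sdc2), fell in both directions. Of 22 tested genes listed as semaphorin and plexin effectors, 2 were called higher (the kinase Gsk3b and the transmembrane protein Plxdc2) and 3 lower. Those were the kinase Cdk5, at 10.1 ± 2.09 CPM in Visudyne hippocampus, against 15.1 ± 1.29 CPM in vehicle (log2 fold change -0.58 ± 0.13, adjusted p = 0.0252 by edgeR), the actin oxidase Mical2 and the exchange factor Farp1. Of 20 Eph and ephrin effectors, 2 were called higher (Rasa1 and Sdc2) and 4 lower. Kalrn, an exchange factor of dendritic spines, averaged 209.6 ± 13.1 CPM in Visudyne hippocampus, against 264 ± 18.4 CPM in vehicle (log2 fold change -0.33 ± 0.065, adjusted p = 0.0226 by edgeR). Ngef, the exchange factor ephexin-1 downstream of Epha4, averaged 10.6 ± 2.19 CPM in Visudyne hippocampus, against 17.2 ± 3.37 CPM in vehicle (log2 fold change -0.69 ± 0.16, adjusted p = 0.0263 by edgeR), and the kinase Src and the scaffold Pick1 were lower as well. Of 18 netrin and Unc5 effectors, 1 was called higher (Wasl, an activator of actin branching) and 3 lower (among them the actin-binding Ablim3, and Maged1, a partner of Unc5a). The median log2 fold changes of these effector lists were -0.13, -0.085 and -0.043, and several of their counts lie near the shares of all genes given for the co-receptors. The effectors called with the GC trend removed were Cdk5 and Kalrn, both lower, and Grip1, a scaffold that binds ephrin B, which was higher, had not been called before and is named after its values were seen. The other effectors named here were then not called, among them Ngef at a log2 fold change of -0.34 (edgeR adjusted p = 0.0572) and Src at -0.27 (adjusted p = 0.0734).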

How the data were processed

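Total RNA of 10 hippocampus samples was sequenced from libraries of a stranded kit (per the labels' protocols). What the authors deposited is a table of estimated counts per gene, as whole numbers. Salmon, after FastQC, on mm10 is named by the submitters' processing notes; for versions, annotation and strand setting the sources used here give nothing. Symbols, exon lengths, positions and GC content came from GENCODE M21 on GRCm38, which matched 27053 of 27343 identifiers. Groups were compared in R 4.3.3 with edgeR 4.0.16 (filterByExpr, TMM, glmQLFit, glmQLFTest, two-sided, no covariate), with Benjamini-Hochberg adjustment over 15938 genes and calls at an adjusted p under 0.05. CPM uses TMM library sizes, and a level between genes is CPM per kilobase of exon. A standard error is the log2 fold change over the square root of F. GC trends were removed per library with a loess curve (span 0.3) as an offset. Each library was counted once. Every pair of libraries within a group differed beyond counting noise (lowest chi-square over degrees of freedom 13.3). Separate libraries of the same RNA can also differ in this way, so the check does not show that they come from separate animals. Values per library are given for up to 10 called members in each direction, the most abundant member of each family and 17 chosen genes; of each pathway list, up to 6 genes with the smallest p are named. The members, lists and rules were chosen with earlier results of these data known. The fit was checked on simulated data. Those data held no GC trend that differed between libraries, so the check does not bear on calls that go with GC content. Alternatives were other scalings and filters, DESeq2 1.42.0, limma 3.58.1 (voom), sva 3.50.0, a length trend, the GC slope as covariate and leaving out libraries. Depth limits scarce genes: members under 1 CPM rest on few counts per library, and replicate spread adds to counting error.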

Additional observations from a re-analysis of the deposited data

Results flagged for a closer look

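In 92 groups of 5 values (named members, marker lists and the guidance gene mean, in each group), the highest or lowest library was tested for a gap to the others by Dixon's criterion, and 7 stood apart, where chance gives about 1 in 20. Epha10 had 5.55 CPM in vehicle 9, with the other vehicle libraries at 3.51 to 3.66 CPM. Ntng1 had 44.5 CPM in Visudyne 3, with the other Visudyne libraries at 31.9 to 33.7 CPM. The mean of the 56 tested guidance genes, each as log2 CPM minus its mean over the 10 libraries, was -0.28 in Visudyne 1, with the other Visudyne libraries at -0.098 to -0.039. By the same measure, CA3 markers were at -0.35 in Visudyne 5 and endothelial markers at -0.33 in Visudyne 1, while in vehicle 9 the markers of oligodendrocyte precursors were at 0.49 and those of microglia at -0.055.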

How the results depend on the processing

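No paired analysis was possible because the replicate numbers of the groups (1 to 5 and 6 to 10) share none. Members called higher (6) and lower (9) moved past 1.5 times the reported count under these alternatives: with total counts as the scaling 1 higher and 18 lower, with no filter on low counts 5 lower, with 1 surrogate variable 0 and 0, with the GC trend removed 1 lower, with the GC slope as covariate 0 and 0, and with the GC trend removed and Visudyne 3 and Visudyne 5 left out (chosen after seeing the data) 0 lower. The count over all genes (3261) became 2075 with no filter, 1 with the surrogate variable, 712 with the GC trend removed, 0 with the covariate and 402 with the GC trend removed and Visudyne 3 and Visudyne 5 left out. The surrogate variable left 11 members and 2548 genes at an unadjusted p under 0.05 by edgeR. The members' median log2 fold change (-0.20) was -0.40 with total counts, a scaling that moved the median of all genes from 0.01 to -0.19, and -0.012, 0.035 and 0.0090 with the GC trend removed, with the GC covariate, and with the trend and both samples removed. Reversed values were Unc5a (0.32), Epha10 (0.037) and Ephb6 (0.15) with the GC covariate, and Plxna4 (0.23, called) with the GC trend removed and both samples left out. The cause of these changes was not tested. Leaving out each library in turn gave 0 to 8 higher, 0 to 15 lower, 10 to 5047 of all genes and a median of -0.24 to -0.16; with the GC trend removed as well (chosen after seeing the data) it gave 0 to 8 higher and 0 to 2 lower. Of 644 values of the named members under alternatives, 482 kept direction and side of the threshold, counting 33 sign changes of genes called in neither fit. Another 141 lost the call, 17 gained it and 4 reversed. The fits with the GC trend removed and a single library left out are not among the 644. Of those, the fit without Visudyne 5 newly called Efna3, Epha2, Nrp1, Nrp2 and Plxna4.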

Other observations

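Unc5b, a netrin receptor known in blood vessels and named here after its values were seen, had estimated counts of 37, 146, 109, 0 and 37 in Visudyne samples 1 to 5 and of 146, 182, 146, 230 and 37 in vehicle samples 6 to 10. The same few values came back in several libraries of both groups, and the gene was listed at 0 in Visudyne 4. Its log2 fold change of -0.92 had a standard error of 0.67 and was not called by edgeR (adjusted p = 0.322). Sema6b, a transmembrane ligand of plexin A receptors that was also chosen after its values were seen, had the next lowest adjusted p after Ntng1 among the uncalled members, at a log2 fold change of -0.92 and an adjusted p of 0.0534 by edgeR. Its mean was 1.82 CPM in Visudyne, against 3.44 CPM in vehicle, and the log2 fold change was -0.37 with the GC trend removed.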
